A study of Mus musculus with 12 samples.

Results

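The comparison set 2 RNA-seq libraries of mouse embryos labelled p53 knockout against 2 labelled p53 wild type, all collected 1 h after ionizing radiation, so 4 of the 12 libraries of the series. Genes entered it when they reached 1 TPM (a transcript abundance scaled to a fixed sum in each library) in at least 2 of the 12 libraries, which kept 15535 of 53647 gene IDs. Each library carries a number, 1 or 2, and the labels were compared within that number on the log2(TPM + 1) scale. The value called the label difference below is the knockout-labelled minus the wild type-labelled level on that scale, so a positive value means higher under the knockout label.

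The embryos were at embryonic day 9.5, and both labels at 1 h share 30 Gy of X-rays at 5 Gy per minute, given to the pregnant mouse. The libraries labelled knockout carry the genotype p53 -/- and those labelled wild type p53 +/+. The labels do not give the kind of p53 allele, the strain, or whether a library held 1 embryo or a pool. The same labels exist for untreated embryos and for embryos at 3 h, 2 libraries each, and these 8 libraries entered the fit. RNA was selected by its poly(A) tail and sequenced as paired reads of 75 bp. Cdkn1a (p21), Ccng1, Fbxw7 and the mouse counterpart of foxo3b, Foxo3, are the genes that the title of the series names. The question at 1 h is how early they and further p53 targets differ between the labels.

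The protein p53 is a transcription factor that is made constantly and destroyed constantly, chiefly through the ubiquitin ligase Mdm2. Breaks in DNA activate the kinases Atm and Chek2, which phosphorylate p53 and free it from Mdm2, and p53 then binds a paired site in its target genes and raises their transcription. The targets stop the cell cycle, start the mitochondrial and receptor pathways of cell death, repair DNA, and feed back on p53 itself. In the early mouse embryo p53 is abundant in most tissues.

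Trp53, the gene of p53 (ENSMUSG00000059552), was examined first because it checks the labels. It stood at 250.1 and 209.5 TPM in the knockout-labelled pair at 1 h (number 1, then number 2), and at 114 and 66.8 TPM in those labelled wild type. Both libraries labelled knockout were therefore above both labelled wild type, against the labels, in the pair numbered 1 by 2.19 times and in the pair numbered 2 by 3.14 times. The label difference of Trp53 was 1.38 (SE 0.489), with a limma adjusted p of 0.94. That SE pools the spread of all groups, and the untreated libraries labelled knockout held 265 and 79.1 TPM and those labelled wild type 114 and 211 TPM, so the labels overlapped there. Whether any label was exchanged was not tested. If it was, the untreated comparison, and its difference from 1 h, could mix genotypes. Wrap53, which overlaps Trp53 on the opposite strand, was at 24.7 and 30.3 TPM labelled knockout and 21.5 and 27.9 TPM labelled wild type. The strand setting is not stated, so reads of the 2 genes may not be separable. A transcript level does not show whether protein is made, and no exon-level value was used here. All directions below refer to libraries as labelled. The p53 targets called at 1 h were likewise higher under the knockout label, against the labels. They are therefore not read here as a response without p53.

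**Figure D1:**
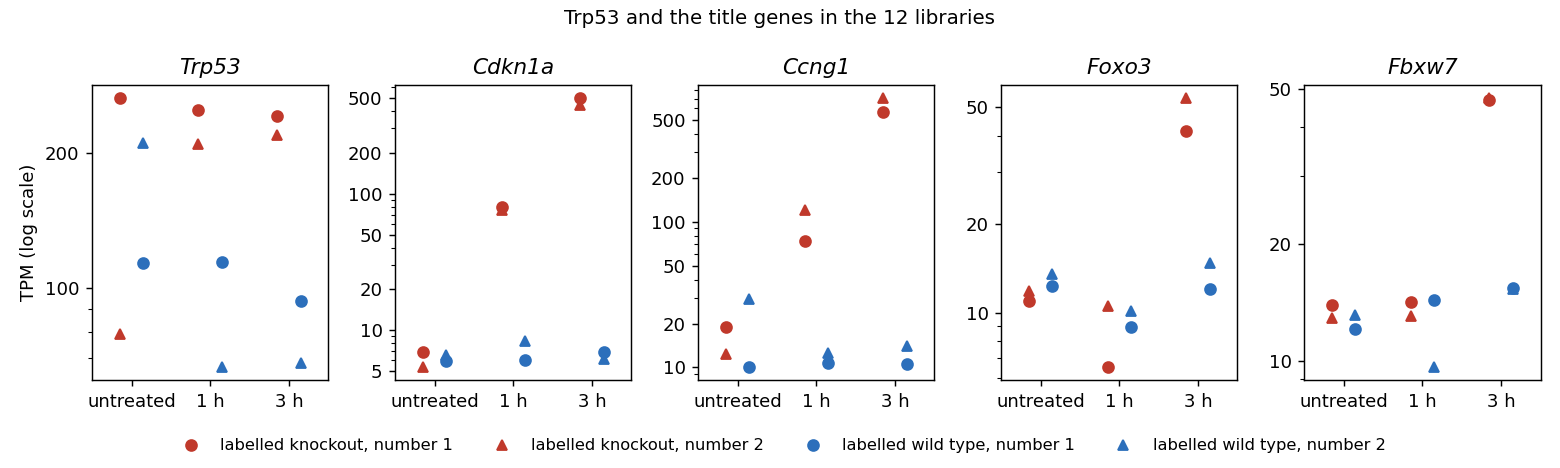
TPM (log axis) of Trp53 and of the 4 genes of the series title in each of the 12 libraries, by time on the horizontal axis; red points are libraries labelled knockout and blue points libraries labelled wild type, circles numbered 1 and triangles numbered 2. At 1 h the red points of Trp53, Cdkn1a and Ccng1 lie above the blue ones, while those of Foxo3 and Fbxw7 overlap with them.

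TPM keeps no read depth, so no counting error can be given. Both 1 h libraries numbered 2 stood apart in make-up: ribosomal protein genes took 19.51% and 19.35% of TPM in the libraries labelled knockout and wild type numbered 2, against 13.61% and 11.75% in those numbered 1 and 11.48% to 13.23% in the 8 libraries of other times. Xist was at 46.7 TPM in the 1 h library labelled knockout numbered 1, and at most 0.01 TPM in the other 3. The Y-linked gene Ddx3y was at 0 TPM in that library and at 14.04 to 17.16 TPM in the other 3. So the 2 libraries labelled knockout came from embryos of different sex, and both labelled wild type from the same sex. By the same 2 genes the libraries of a group differed in sex in 4 of the 6 groups, and so came from different embryos. For the libraries labelled wild type at 1 h and knockout at 3 h nothing in the labels says that they stem from separate embryos, and the spread between them may be technical.

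limma called 12 of the 15535 genes at an adjusted p under 0.05, or 0.0772%, and every one was higher under the knockout label. No gene was called lower (0.0%), while 646 genes (4.16%) had an unadjusted p under 0.05, 473 of them lower (3.04%) and 173 higher (1.11%). Of the 12, 10 belong to lists of known p53 targets, and 65 members of those lists were among the 15535 genes tested. The lists were chosen with earlier results of these data known, so counts of their members are a description and no independent support. All 12 were called higher at 3 h as well, against 9.67% of all genes. Both contrasts come from the same fit and share the SE of each gene, so a small SE favours both calls. None of the 12 was called between the labels in untreated embryos. Among the 12 are brakes on the cell cycle (Cdkn1a, Btg2, Plk2), inhibitors of growth signalling (Sesn2, Phlda3, Inka2), inducers of cell death (Pmaip1, Tnfrsf10b), the p53 cofactor gene Trp53inp1 and the thiamine transporter gene Slc19a2. The remaining pair are Ddias and the gene model Gm37795, which is described last because it falls outside the naming rule.

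**Figure D2:**
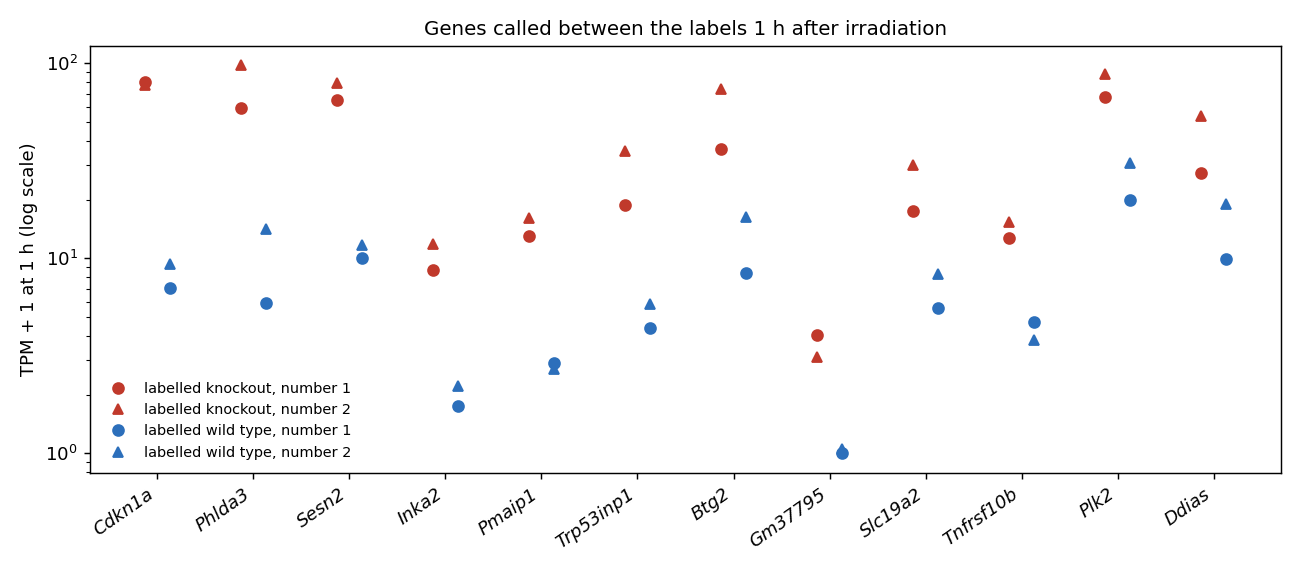
TPM + 1 (log axis) of the 12 genes called between the labels at 1 h, ordered by their label difference, with the same colours and symbols as for the title genes. For every gene both red points (labelled knockout) lie above both blue points (labelled wild type), from Cdkn1a with a label difference of 3.28 to Ddias with 1.49.

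Cdkn1a (ENSMUSG00000023067) encodes p21, the inhibitor of cyclin-dependent kinases that holds cells in G1. Its level was 79.4 and 76.2 TPM in the libraries labelled knockout numbered 1 and 2, and 6.01 and 8.36 TPM in those labelled wild type. The groups were far apart, by 13.2 times within number 1 and 9.11 times within number 2. The label difference was 3.28 (SE 0.169, limma adjusted p = 0.000629). The 4 untreated libraries ranged from 5.38 to 6.88 TPM. The more upstream of the promoter windows that RefSeq gives for Cdkn1a is shown because it was the sole one among the called genes to hold a full p53 site, in capitals: build GRCm38.p6, chr17:29090729-29091028, plus strand, 250 bases before to 50 after the transcription start.
Cdkn1a: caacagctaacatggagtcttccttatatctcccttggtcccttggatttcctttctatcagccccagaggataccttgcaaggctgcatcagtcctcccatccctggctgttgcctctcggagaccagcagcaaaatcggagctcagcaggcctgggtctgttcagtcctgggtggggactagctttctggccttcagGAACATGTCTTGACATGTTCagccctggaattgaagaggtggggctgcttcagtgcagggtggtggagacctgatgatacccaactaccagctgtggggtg
The site lies 51 to 32 bases before that start and differs from the consensus at 1 base.

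Btg2 encodes an antiproliferative protein that slows the passage from G1 to S. Its TPM was 35.3 and 73.1 under the knockout label and 7.38 and 15.2 under the wild type label. Within each number the levels differed by 4.78 and 4.80 times, and under both labels the library numbered 2 was the higher one. The label difference was 2.15 (SE 0.168, limma adjusted p = 0.00419). Plk2 is a polo-like kinase of the centrosome that p53 induces after damage. It was at 66.1 and 86.9 TPM labelled knockout and 18.9 and 29.8 TPM labelled wild type, a difference of 1.63 (SE 0.126, limma adjusted p = 0.00419). Of the 12 it had the highest TPM under the wild type label, and a smaller fold (3.49 and 2.91 times within the numbers) than Cdkn1a.

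Sesn2, a stress-induced leucine sensor that restrains mTORC1, was at 63.8 and 77.9 TPM in the libraries labelled knockout and at 8.98 and 10.6 TPM in those labelled wild type. Its label difference of 2.73 (SE 0.143, limma adjusted p = 0.000629) had nearly the same size in the pair numbered 1 (2.7) and the pair numbered 2 (2.76). Phlda3, a membrane-binding protein that competes with AKT, was at 58.0 and 96.7 TPM labelled knockout and at 4.87 and 13.2 TPM labelled wild type. The difference was 3.05 (SE 0.324, limma adjusted p = 0.022), the next in size after Cdkn1a among the 12. Inka2, an inhibitor of the kinase PAK4, was nearly off under the wild type label. It stood at 0.74 and 1.21 TPM there and at 7.76 and 10.9 TPM under the knockout label (2.38, SE 0.229, limma adjusted p = 0.0151).

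The cell death genes among the calls act at different points. Pmaip1 encodes NOXA, a BH3-only protein that neutralizes MCL1 at mitochondria. It was at 12.0 and 15.1 TPM labelled knockout and 1.92 and 1.72 TPM labelled wild type (2.36, SE 0.26, limma adjusted p = 0.0266). Tnfrsf10b is the mouse receptor for the death ligand TRAIL. It was at 11.7 and 14.3 TPM against 3.71 and 2.79 TPM (1.72, SE 0.178, limma adjusted p = 0.0203). Neither gene overlapped between the labels.

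Trp53inp1 encodes a nuclear stress protein that binds p53 and promotes its activity. Its TPM was 17.7 and 34.4 labelled knockout and 3.41 and 4.83 labelled wild type (2.34, SE 0.158, limma adjusted p = 0.00218). Slc19a2 carries thiamine into the cell and stood at 16.5 and 29.2 TPM against 4.55 and 7.27 TPM (1.76, SE 0.157, limma adjusted p = 0.00974). Ddias, whose product suppresses apoptosis after DNA damage, belonged to no target list used. It was at 26.3 and 52.9 TPM labelled knockout and at 8.92 and 17.9 TPM labelled wild type. The groups were apart, and within each number the fold was 2.95 and 2.95. The resulting difference of 1.49 had the smallest SE of the 12, 0.0967 (limma adjusted p = 0.00218).

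Gm37795, a gene model outside the naming rule and chosen after its values were seen, was at 3.04 and 2.12 TPM labelled knockout and at 0 and 0.05 TPM labelled wild type. The label difference was 1.79 (SE 0.179, limma adjusted p = 0.0176), a value that depends on the added 1 TPM at such low levels. Gm37795 passed the filter only through the libraries labelled knockout at 1 h and at 3 h (8.73 and 7.93 TPM), and was at most 0.13 TPM elsewhere. Its place among the genes tested thus came from libraries where it is high. With no filter on low values it kept its call. In an earlier annotation (GENCODE M21, GRCm38) this model runs on the same strand as Mir34a and overlaps 17 bases of the 102-base hairpin. Mir34a itself is a microRNA gene known as a p53 target. It was listed at 0 TPM in all 12 libraries, so these values say nothing of the mature microRNA. Its 2 mature sequences from RefSeq are shown for the place of the model, with the seed (bases 2 to 8) in capitals, on the plus strand of chr4:150068473-150068494 and chr4:150068517-150068537 in GRCm38.p6.
mmu-miR-34a-5p: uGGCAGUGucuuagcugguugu
mmu-miR-34a-3p: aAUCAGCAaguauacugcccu

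The 12 calls rest on an SE shared by all 6 groups. With the 4 libraries at 1 h alone limma called 0 genes (496 at an unadjusted p under 0.05). Without the library number as a block it called 6 genes, all among the 12: Cdkn1a, Sesn2, Inka2, Pmaip1, Tnfrsf10b and Gm37795. With a pseudocount of 0.1 Pmaip1 and Gm37795 lost their calls. With the block within each time limma called 12 genes, 11 higher and 1 lower, and 9 were shared with the main fit. Tnfrsf10b, Pmaip1 and Gm37795 were then not called. With no filter on low values it called 10 genes, 9 higher and 1 lower, and 8 were shared. Tnfrsf10b, Pmaip1, Phlda3 and Inka2 were not called there. Gm37795 also lost its call with a minimum of 5 TPM and with quantile normalization. With 1 library left out the count was 5 when that was either library labelled knockout at 1 h or the wild type-labelled one numbered 1, and 7 or 6 when it was number 1 or 2 of the knockout label at 3 h. Cdkn1a, Sesn2, Trp53inp1 and Ddias kept their calls whichever of the 12 libraries was left out, but Trp53inp1 and Ddias lost theirs without the block. Btg2 lost its call without the 1 h library labelled knockout numbered 2 or labelled wild type numbered 1, and Plk2 without either 1 h library labelled knockout. Slc19a2 and Inka2 lost theirs whichever 1 h library was left out, Slc19a2 also without the 3 h library labelled knockout numbered 2 and Inka2 without either 3 h library labelled knockout. Pmaip1 and Tnfrsf10b lost theirs whichever of the 8 irradiated libraries was left out. Phlda3 kept its call without either untreated library labelled knockout and without the wild type-labelled 1 h library numbered 2, and Gm37795 without the untreated library labelled knockout numbered 2 or either labelled wild type.

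Of the 4 title genes, Cdkn1a was called at 1 h and the other 3 were not. Ccng1, which encodes cyclin G1, a partner of the phosphatase that acts on Mdm2, was at 73.5 and 120.2 TPM labelled knockout and at 10.6 and 12.6 TPM labelled wild type. The labels were separated by 6.90 and 9.54 times within the numbers. With 2.92 its label difference was among the largest measured, but its SE of 0.38 left it at a limma adjusted p of 0.0706. The spread behind that SE includes the untreated libraries labelled wild type, at 10.1 and 29.2 TPM. Foxo3, a forkhead transcription factor held out of the nucleus by AKT, was at 6.55 and 10.5 TPM against 8.91 and 10.2 TPM, overlapping between the labels (-0.17, SE 0.14, limma adjusted p = 0.944). Fbxw7, the substrate receptor of a ubiquitin ligase for cyclin E and Myc, overlapped too, at 14.2 and 13.1 TPM against 14.3 and 9.65 TPM (0.20, SE 0.152, limma adjusted p = 0.943).

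The p53 target lists hold 67 genes, of which 65 were tested at 1 h. Besides the 10 called, none was called lower, and the median label difference of the 65 was 0.29, against -0.05 over all genes tested. Both libraries labelled knockout were above both labelled wild type for 29 of the 65, against 4.54% of all genes, and below for 2, against 11.0% of all genes. Those 2, named after their values were seen, are Tigar, a regulator of glycolysis, and the RNA-binding gene Celf5. At least 2-fold within both numbers on the log2(TPM + 1) scale were 15 of the 65, against 0.2% of all genes. In the untreated libraries the median of the 65 was -0.03 and no member was called. The count of 10 fell to 5 without the replicate block, to 0 with the 4 libraries at 1 h alone and to 6 with no filter on low values. With 1 library left out the count was 4 (number 1) or 3 (number 2) when it was labelled knockout at 1 h, 4 or 6 when labelled wild type at 1 h, and 6 or 5 when labelled knockout at 3 h.

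Arrest and feedback genes made up most of the calls, with 7 of 23 tested, against 0.0772% of all genes. Their median was 0.49, against -0.05. Gtse1, a protein of G2 and M phase that carries p53 out of the nucleus, stood nearest the threshold among those not called. It was at 52.0 and 64.7 TPM labelled knockout and 26.2 and 34.2 TPM labelled wild type (0.93, SE 0.114, limma adjusted p = 0.0527). Ddit4, an inhibitor of mTORC1 also known as REDD1, was at 74.4 and 134 TPM against 16.8 and 33.4 TPM, with a wider SE (2.03, SE 0.3, limma adjusted p = 0.148). Both genes were apart between the labels in all 4 libraries.

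Mdm2, the ubiquitin ligase of p53 and one of its best known targets, was at 55.2 and 70.0 TPM labelled knockout and 46.3 and 41.9 TPM labelled wild type. These groups did not overlap, yet the label difference was 0.49 (SE 0.12, limma adjusted p = 0.94), against 3.28 for Cdkn1a. Ppm1d, the WIP1 phosphatase that switches off Atm signalling, was at 36.0 and 35 TPM against 24.9 and 25.8 TPM (0.47, SE 0.0802, limma adjusted p = 0.306). Gadd45a, a stress protein of the G2 checkpoint, overlapped between the labels, at 19.5 and 13.8 TPM against 19.6 and 18.9 TPM. Sesn1, the close relative of Sesn2, had a label difference of -0.11 (SE 0.128), and Zmat3, which encodes an RNA-binding zinc finger protein, had 0.46 (SE 0.285). Of the genes upstream of p53, Atm, Chek2 and Mdm4 overlapped between the labels, with differences of -0.21, 0.05 and -0.33, and none of the 13 regulators tested was called (2, Trp53 and Mdm2, at an unadjusted p under 0.05).

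Among 17 cell death genes tested 2 were called, against 0.0772% of all genes, and the median was 0.29, against -0.05. Bbc3 encodes PUMA, a BH3-only protein that binds every antiapoptotic BCL2 member. It was at 45.0 and 43.2 TPM labelled knockout and 8.81 and 12.7 TPM labelled wild type (1.96, SE 0.249, limma adjusted p = 0.063). Eda2r, a receptor of the TNF family, was close to off under the wild type label, at 0.35 and 0.41 TPM, and at 6.63 and 14.6 TPM under the knockout label. Its label difference of 2.98 had an SE of 0.557 (limma adjusted p = 0.505), with untreated libraries between 0.09 and 2.81 TPM. Bax, the pore-forming effector, overlapped between the labels across numbers, at 141 and 182 TPM against 87.9 and 141 TPM (0.52, SE 0.179). The death receptor gene Fas stayed low in all 4 libraries, at 0.81 and 1.47 TPM against 0.34 and 1.15 TPM. Apaf1, which forms the apoptosome, had a label difference of -0.10 (SE 0.137) and Perp, a membrane protein of cell junctions, one of 0.14 (SE 0.106).

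Repair, metabolism and secretion genes had the lowest median of the 3 target lists, 0.03, against -0.05 for all genes. Of 25 tested 1 was called (Slc19a2), against 0.0772% of all genes. Zfp365, a zinc finger gene linked to genome stability, was at 3.53 and 6.16 TPM labelled knockout and 1.08 and 2.00 TPM labelled wild type (1.19, SE 0.231, limma adjusted p = 0.598). Ak1, an adenylate kinase, followed with 0.50 (SE 0.128), and Tap1, a transporter of antigenic peptides, with 0.56 (SE 0.179) at no more than 1.03 TPM. The nucleotide excision repair genes Ercc5, Xpc and Ddb2 lay at 0.04, -0.13 and -0.12, and the lesion-bypass polymerase Polk at 0.03. None of these 7 genes was called, and over the list 4 genes were higher and 1 lower at an unadjusted p under 0.05.

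Full p53 sites were searched in the RefSeq promoter windows of these genes. The site searched is the p53 consensus, 2 half-sites of 10 bases with no spacer and with the central C and G of each half-site required, and at most 2 mismatches elsewhere. The consensus reads the same on both strands. A match was found for 5 of the 55 target-list genes with a window (9.09%), for 51 of 10873 tested genes with one (0.469%) and for 106 of all 27025 genes (0.392%). Of the 12 called genes 8 have a window and 1, Cdkn1a, a match (12.5%). The other 4 matches were in Ccng1, Gtse1, Zfp365 and Ckap2, target genes that were called at 3 h and not at 1 h. Their windows are shown for comparison with that of Cdkn1a, whole for Ccng1 and Gtse1, with the site in capitals: Ccng1 at chr11:40755237-40755536 on the minus strand and Gtse1 at chr15:85859696-85859995 on the plus strand, both GRCm38.p6.
Ccng1: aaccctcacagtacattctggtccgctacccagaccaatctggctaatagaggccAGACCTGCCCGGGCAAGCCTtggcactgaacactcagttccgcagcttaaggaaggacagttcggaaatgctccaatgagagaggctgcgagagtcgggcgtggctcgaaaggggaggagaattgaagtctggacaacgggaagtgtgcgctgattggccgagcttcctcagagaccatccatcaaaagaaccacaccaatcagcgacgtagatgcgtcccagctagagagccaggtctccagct
Gtse1: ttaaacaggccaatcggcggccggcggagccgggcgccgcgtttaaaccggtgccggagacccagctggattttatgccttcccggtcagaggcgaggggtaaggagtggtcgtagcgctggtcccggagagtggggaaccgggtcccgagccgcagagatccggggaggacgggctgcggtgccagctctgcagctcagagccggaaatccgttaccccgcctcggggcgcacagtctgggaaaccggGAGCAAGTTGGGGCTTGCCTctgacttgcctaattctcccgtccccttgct
Zfp365 site: AGACTAGGCTGGGCAAGACT
Ckap2 site: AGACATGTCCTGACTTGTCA
The Ccng1 site lies 195 to 176 bases before the start and the Gtse1 site across the start, each with 1 mismatch. The sites of Zfp365 (63 to 44 bases before) and Ckap2 (203 to 184 bases before) have 2 mismatches each, in the windows chr10:67912613-67912912 and chr8:22185770-22186069 on the minus strand. A match is a run of letters and no measurement of binding, and the windows do not hold sites farther from the start.

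The 3 h libraries show how far each target had moved at 1 h. At 3 h limma called 4371 genes between the labels (28.1%), 1502 higher (9.67%) and 2869 lower (18.5%), and with median-of-ratios size factors 1922 higher and 1641 lower. Of the 65 targets 49 were called higher and 4 lower, the 4 being Polh, Bcl2l11, Xpc and Cop1, named after their values were seen. Some of the 49 passed the filter only through the 3 h libraries labelled knockout. Dram1 was at 1.23 and 1.61 TPM there and at most 0.45 TPM elsewhere, Gdf15 at 1.13 and 1.66 and at most 0.25, and Abcb1a at 2.03 and 1.74 and at most 0.51. The count of 49, and what is built on it below, is therefore in part set by the filter. The median of the 65 was 2.17 at 3 h and 0.29 at 1 h. The difference between the 3 h and the 1 h label difference was itself tested, and 1387 genes passed (8.93%), 793 with the larger value at 3 h (5.1%) and 594 with the smaller (3.82%). With size factors that split was 979 and 421, and without the replicate block 316 and 64. Without one of the 4 libraries at 3 h the counts were 1880 to 2634 between the labels at 3 h and 472 to 619 between the times, and the latter was 855 to 871 without either library labelled knockout at 1 h or the wild type-labelled one numbered 2. Of the 49 targets, 38 passed with the larger value at 3 h. Among the 49, 29 had a 1 h label difference under 0.5.

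**Figure D3:**
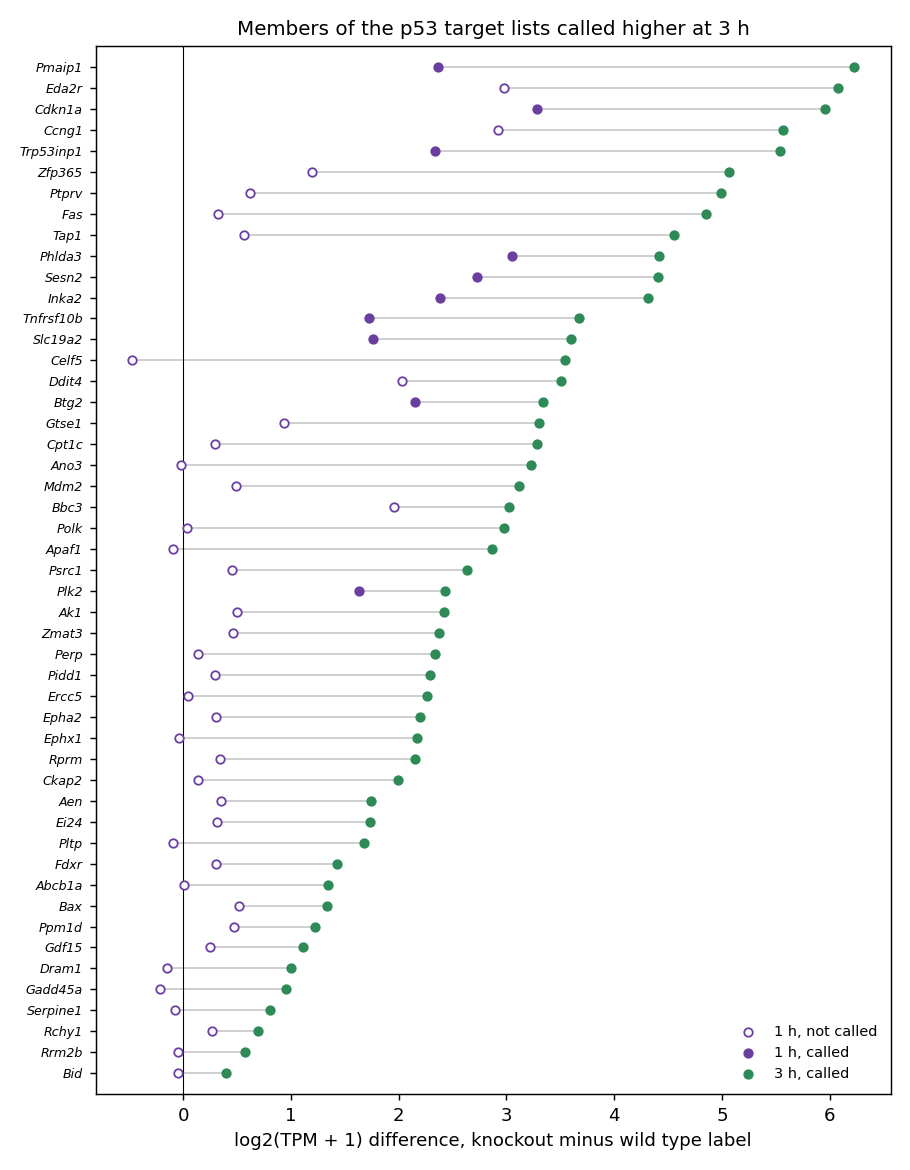
Label difference on the log2(TPM + 1) scale (horizontal axis) of the 49 p53 targets called higher at 3 h, ordered by their 3 h value; green points are 3 h, filled purple points 1 h values that were called and open purple points 1 h values that were not. The 1 h points of 29 genes lie under 0.5, and those of Cdkn1a, Phlda3, Eda2r and Ccng1 near 3.

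The share of the 3 h label difference present at 1 h varied among the targets. Phlda3 and Sesn2 had 3 h label differences of 4.42 and 4.41, and at 1 h they had reached 69.1% and 61.9% of those values on the log2 scale. Cdkn1a had reached 55.0% of 5.96, Ccng1 52.3% of 5.57 and Pmaip1 37.9% of 6.23. Fas, with 4.85 at 3 h, had reached 6.54%, Mdm2 15.6% of 3.12 and Polk 1.11% of 2.98. Of the 12 genes called at 1 h, 11 passed the test for a larger difference at 3 h, and the exception was Phlda3 (1.37 larger, limma adjusted p = 0.11). Fas gained 4.53 (limma adjusted p = 0.000742) and Mdm2 gained 2.63 (limma adjusted p = 0.000445) between the times. Foxo3 and Fbxw7, which overlapped between the labels at 1 h, were called higher at 3 h (1.75 and 1.56), and the change between the times passed for both (limma adjusted p = 0.00169 and 0.00964).

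Whether the 1 h label difference exceeded the one already present without irradiation was tested next. limma called 8 genes (0.0515%), all with the larger value at 1 h: Cdkn1a, Sesn2, Trp53inp1, Btg2, Hoxc6, Slc19a2, Plk2 and Ddias. For the 7 of these that were called at 1 h no difference was called between the labels in untreated embryos. Sesn2 stood there at 10.2 and 9.33 TPM labelled knockout and 8.15 and 12.1 TPM labelled wild type, and Trp53inp1 at 3.15 and 4.11 TPM and 3.52 and 6.51 TPM. Hoxc6, a posterior Hox gene, differed between the labels in the untreated libraries instead: at 1 h it was at 18.5 and 20.1 TPM labelled knockout and 14.0 and 18.4 TPM labelled wild type, but untreated at 2.26 and 2.56 TPM against 11.2 and 11.3 TPM. It and Hoxb9 were the 2 genes called between the labels in untreated embryos (0.0129%), both lower under the knockout label. That count was 0 without either untreated library labelled knockout, 5 and 3 without those labelled wild type numbered 1 and 2, and 1 without any one irradiated library. The count of 8 was 1 without the replicate block. It was 4 without the 1 h library labelled knockout numbered 1, either 3 h library labelled knockout, the 1 h library labelled wild type numbered 1 or the untreated one labelled wild type numbered 1. It was 5 without the 1 h library labelled wild type numbered 2, 3 and 0 without the untreated libraries labelled knockout numbered 1 and 2, 2 without the untreated one labelled wild type numbered 2, and 0 without the 1 h library labelled knockout numbered 2.

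Over all genes tested the label differences of the 2 pairs of libraries had little relation. Across the 15535 genes the label difference in the pair numbered 1 and that in the pair numbered 2 had a Pearson r of 0.0716 and a Spearman rho of 0.0334, as a description across genes, which are not independent. Their SDs across genes were 0.435 and 0.303. The median size of the label difference was 0.13 at 1 h, 0.11 untreated and 0.34 at 3 h.

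**Figure D4:**
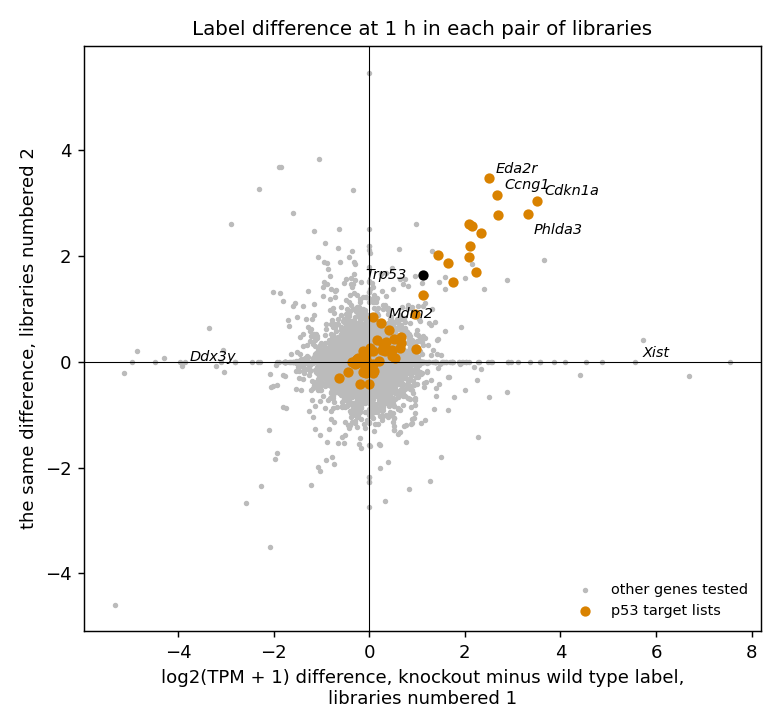
Label difference on the log2(TPM + 1) scale in the pair of 1 h libraries numbered 1 (horizontal axis) and in the pair numbered 2 (vertical axis), 1 point per gene tested; orange points are members of the p53 target lists, the black point is Trp53 and grey points are all other genes. The orange points that leave the centre lie at upper right, positive in both pairs, while the grey cloud shows little relation between the pairs (r of 0.0716).

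In the cell cycle lists the one call at 1 h was Cdkn1a. None of 30 genes of G2 and mitosis and none of 30 of G1/S and replication was called, nor had any an unadjusted p under 0.05, and the medians were -0.07 and -0.03 beside -0.05 for all genes. Mki67, the proliferation marker, was at 70.9 and 64.6 TPM labelled knockout and 95.4 and 70.0 TPM labelled wild type, and Ccne1, cyclin E1, at 99.0 and 104 TPM against 113 and 109.9 TPM. The label difference of Ccne1 was -0.13 (SE 0.12) at 1 h and -1.37 at 3 h, where it was called. At 3 h 16 of the 30 G1/S genes were called lower and 15 of the 30 G2 and mitosis genes, against 18.5% of all genes. Over all genes the count called lower fell from 2869 to 1641 with size factors. Of 6 inhibitors of cyclin-dependent kinases tested, Cdkn1a was the sole one called at 1 h, and Cdkn1b (p27) stood at -0.20 (SE 0.0942).

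Other responses to damage and stress held no further call at 1 h. Among 22 genes of double-strand break repair the median was -0.05, with 2 lower at an unadjusted p under 0.05. Brca1, a homologous recombination gene, was at 14.9 and 22.9 TPM against 27.3 and 24.6 TPM, not overlapping but with a limma adjusted p of 0.94. Of 15 genes of the unfolded protein and integrated stress responses the one called was Sesn2, which is also in the p53 lists. Hmox1, the haem oxygenase induced by NRF2, was at 20.9 and 25.5 TPM labelled knockout and 14.3 and 18.97 TPM labelled wild type (0.46, SE 0.108, limma adjusted p = 0.94). The 11 NF-kappaB targets, 10 heat shock genes, 9 NRF2 targets, 15 hypoxia and glycolysis genes and 4 interferon genes tested had 0 calls by limma, with medians from -0.23 to 0.03 and 0, 0, 2, 1 and 1 genes at an unadjusted p under 0.05.

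Immediate early genes, which need no new protein to be induced, had a median of -0.08 over 23 tested and no call at 1 h, with 1 higher and 3 lower at an unadjusted p under 0.05. Fos, a subunit of AP-1, was at 2.25 and 3.22 TPM labelled knockout and 0.95 and 1.39 TPM labelled wild type (0.78, SE 0.226, limma adjusted p = 0.94), and Dusp6, a phosphatase of ERK, at 18.9 and 26.6 TPM against 24.9 and 37.0 TPM. Egr1, a zinc finger factor of the same class, lay between 1.62 and 2.42 TPM in the 4 libraries, with a label difference of 0.06 at 1 h and 3.86 at 3 h. At 3 h 15 of the 23 were called higher, against 9.67% of all genes, and 1 lower, against 18.5%.

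The labelled tissue was checked by its markers. Cardiac muscle genes summed to between 1523 and 1987 TPM over the 4 libraries at 1 h, neural progenitor genes to between 329.4 and 454.7 TPM, and somite genes to between 157.0 and 181.8 TPM. In whole embryos fewer cells of a type and less RNA per cell cannot be told apart. No marker gene of any tissue list was called between the labels at 1 h, and at an unadjusted p under 0.05 there were 2, both lower. The list medians were -0.33 for 17 neuron genes, -0.16 for 13 neural progenitor genes, -0.16 for 11 neural crest genes, -0.04 for 11 somite genes, 0.13 for 14 cardiac genes and 0.04 for 12 endothelial genes. In untreated embryos the medians were -0.37, -0.04, -0.01, -0.33, 0.32 and 0.03 in the same order. At 3 h they were -0.999, -1.95, -0.77, -1.18, 1.03 and 0.66. Over all genes tested the median was -0.05 at 1 h, -0.01 untreated and -0.16 at 3 h.

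Stage and position genes had small label differences at 1 h: medians of -0.13 for 13 posterior Hox genes, -0.09 for 16 anterior Hox genes and -0.01 for 16 forebrain and midbrain factors. No member was called, nor at an unadjusted p under 0.05. In untreated embryos the posterior Hox median was -1.33, with Hoxc6 and Hoxb9 called lower under the knockout label. Hoxb9, a marker of the posterior trunk, was at 45.4 and 58.2 TPM labelled knockout and 54.2 and 58.6 TPM labelled wild type at 1 h, and at 10.6 and 12.3 against 53.2 and 41.7 TPM untreated. At 3 h Hoxb9 was at 9.64 and 12.7 against 34.9 and 42.8 TPM (-1.71, SE 0.17, limma adjusted p = 0.000421), while Hoxc6 had a label difference of 0.13. Called lower at 3 h were 4 of the 13 posterior and 15 of the 16 anterior Hox genes, and 14 of the 16 forebrain and midbrain factors, against 18.5% of all genes.

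Blood and extraembryonic markers varied between libraries. Primitive erythroid genes took 0.584% and 1.046% of TPM in the libraries labelled knockout numbered 1 and 2 and 1.028% and 1.318% in those labelled wild type. Their median label difference over 11 genes was -0.54 at 1 h, -0.81 untreated and 1.08 at 3 h. Visceral endoderm and yolk sac genes summed to 182.2 and 429.6 TPM labelled knockout and 234.7 and 175.8 TPM labelled wild type. Their median was -0.64 in the pair numbered 1 and 1.93 in the pair numbered 2, so the pairs went opposite ways. Of the trophoblast markers 4 of 11 were at 0 in all 4 libraries at 1 h, and of the decidua markers 2 of 8, with summed levels of 31.75 to 42.54 TPM and 62.93 to 71.13 TPM. The part of these markers in the calls at 1 h was not tested.

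At least 2-fold within both numbers were 31 genes higher (0.2%) and 13 lower (0.0837%) under the knockout label. None of the 13 was called at 1 h. Some genes on both sides lay near 0 TPM. Gm8783, among the lower, was at 0 and 0 TPM labelled knockout and 3.3 and 1.44 TPM labelled wild type. Gm12854, among the higher, was at 1.49 and 3.26 TPM against 0 and 0 TPM. At 3 h 21 of the 31 were called higher, against 9.67% of all genes, and 1 of the 13 lower, against 18.5%. The 31 hold 15 p53 targets and Trp53 itself. Of the others the following were chosen after their values were seen. Ddit4l, an inhibitor of mTORC1 related to Ddit4, was at 14.4 and 19.9 TPM labelled knockout and 1.10 and 6.15 TPM labelled wild type (2.21, limma adjusted p = 0.223). The gene model 1700007K13Rik was at 3.36 and 3.87 against 1.01 and 1.34 TPM. At 3 h both were called higher, at 4.91 and 6.27. Rtraf, an RNA transcription and export factor, was at 247.88 and 195.76 TPM labelled knockout and 120.89 and 93.5 TPM labelled wild type at 1 h, and its label difference was 0.02 at 3 h.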

How the data were processed

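Poly(A)-selected RNA of mouse embryos at embryonic day 9.5 was sequenced in 12 libraries, 2 for each label and time. The authors deposited TPM per gene ID, and the columns sum to between 999999.1 and 1000000.8, so depth is not kept. Per the submitters' processing notes the tools were R 4.3.3, DESeq2 1.42.1, RSEM 1.3.3, HTSeq 0.12.3 and STAR 2.7.3a, with builds GRCm39 and mm39. Which tool made the TPM values, and from which annotation, is not given in the sources used here. Symbols came from GENCODE M21 (GRCm38) by gene ID and matched 52093 IDs (97.1%), leaving 42 tested genes without a symbol. Reads shared by paralogs, pseudogenes or overlapping genes may be split uncertainly. Promoter windows and microRNAs are RefSeq sequences of GRCm38.p6, which is an earlier build than that of the files, and only sequences were taken from them.

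Log2(TPM + 1) of the 15535 genes with at least 1 TPM in at least 2 libraries was modelled in R 4.3.3 with limma 3.58.1: 6 group means over all 12 libraries, the library number as a fixed block, moderated variances with a trend, two-sided tests, Benjamini-Hochberg adjustment over all genes tested and calls at an adjusted p under 0.05. No count model was used. The 5 contrasts were knockout minus wild type label at 1 h, untreated and at 3 h, and the differences of 1 h and untreated and of 3 h and 1 h. The fit was tested on simulated data. The library number comes from the labels. Deviations of same-numbered libraries from their group means correlated at 0.327 to 0.796 across genes in all 15 pairs of groups, and at 0.796 between the labels at 1 h, so the numbers were taken to pair the samples.

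The comparison, its members and the 37 gene lists were chosen with earlier results of these data known, and lists are described by counts and medians beside those of all genes. By the naming rule the text names Trp53, the 4 title genes, up to 12 called genes in each direction that have a regular symbol and do not overlap between labels, and from each list up to 4 called members or the 2 with the smallest p; a few of these are not reported here. Other p53 targets named were taken from the lists for their role, after their values were seen. Alternatives were the fit without the block, the block within each time, the 4 libraries at 1 h alone, a pseudocount of 0.1, no filter, a minimum of 5 TPM, size factors, quantile normalization, no trend, and each of the 12 libraries left out. Leaving out both 1 h libraries of one number was added after seeing the data. The plots were made in matplotlib 3.10.9 (Python 3.11.15).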

Additional observations from a re-analysis of the deposited data

Results flagged for a closer look

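Differences of the label difference between times, each tested as an interaction in limma, are given here as values on the log2(TPM + 1) scale.

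Between 1 h and untreated 8 genes passed, all with the larger value at 1 h: Cdkn1a by 3.31, Sesn2 by 2.76, Trp53inp1 by 2.68, Btg2 by 2.41, Hoxc6 by 2.10, Slc19a2 by 2.00, Plk2 by 1.83 and Ddias by 1.67. For Hoxc6 the change came with untreated libraries that already differed between the labels, at 2.26 and 2.56 TPM labelled knockout against 11.2 and 11.3 TPM labelled wild type.

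Between 3 h and 1 h 1387 genes passed. Of the genes called at 1 h, Pmaip1 gained 3.87, Trp53inp1 3.20, Cdkn1a 2.68, Tnfrsf10b 1.95, Inka2 1.93, Slc19a2 1.84, Sesn2 1.68, Gm37795 1.35, Btg2 1.19, Ddias 0.91 and Plk2 0.79. The title genes not called at 1 h gained 2.66 (Ccng1), 1.92 (Foxo3) and 1.37 (Fbxw7), and Mdm2 gained 2.63.

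Genes outside the p53 lists passed as well. Higher at 3 h than at 1 h were the label differences of Fos (by 2.48), Hspa1a, a heat shock chaperone (1.98), Ascl2, a trophoblast factor (1.51), Hmox1 (1.26), Actc1 and Myl7 of cardiac muscle (1.04 and 0.94), Dusp6 (1.02), Pecam1 and Plvap of endothelium (0.95 and 0.55), Cenpe, a kinetochore motor (0.70), and Wrap53, which overlaps Trp53 on the opposite strand (0.66). Lower at 3 h than at 1 h were those of Hes5, a Notch effector of neural progenitors (-2.15), Meox2 of somites (-1.63), Isl1 of motor neurons (-1.52) and Otx1 of the forebrain (-1.46).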

How the results depend on the processing

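With 2 libraries a group, the calls at 1 h depend on variance borrowed from the other groups. Of 10 alternatives other than leaving out a library, 3 moved the 12 calls at 1 h by over 1.5 times: without the replicate block limma called 6 genes, and with the 4 libraries at 1 h alone 0, with the block (496 at an unadjusted p under 0.05) and without it (104). The p53 targets called were then 5, 0 and 0 in place of 10, and 6 with no filter on low values. No call at 1 h of a gene named by the rule, or of the 12, was reversed in direction. The block within each time and no filter on low values each brought 1 gene called lower at 1 h. With size factors the calls at 3 h were mostly higher (1922 higher and 1641 lower). In the main fit they were mostly lower (1502 higher and 2869 lower). TPM keeps no depth, so the counting error of differences at low TPM cannot be given.

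In the fit that ignores the pairing by number (no replicate block) the other counts were 1603 at 3 h in place of 4371, 1 for 1 h minus untreated in place of 8, and 380 for 3 h minus 1 h in place of 1387. The 2 calls in untreated embryos became 4 with a pseudocount of 0.1 and 4 with a minimum of 5 TPM. Without both 1 h libraries numbered 1, a setting added after seeing the data, the counts were 6 at 1 h, 5 among p53 targets, 1 untreated and 0 for 1 h minus untreated. Without both numbered 2 they were 13 at 1 h (9 higher and 4 lower, 7 shared with the 12), 1 untreated and 1 for 1 h minus untreated. Leaving out 1 library gave 5 to 13 calls at 1 h, 3 to 11 among p53 targets, 0 to 5 untreated, 1880 to 4681 at 3 h, 0 to 7 for 1 h minus untreated and 472 to 972 for 3 h minus 1 h. Fewer libraries were then in the fit, and a group left with 1 library is assumed to vary like the others.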

Other observations

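Beside Trp53, 43 genes differed at least 2-fold between the labels within both numbers at 1 h. In 7 of them the 6 libraries with the highest values were the same 6 as for Trp53, which include the untreated library labelled knockout numbered 1 and the untreated library labelled wild type numbered 2. They were Eda2r, Ccng1, Inka2, Gm37795, Gm42047, Gm47761 and 2610507I01Rik, and were chosen after their values were seen. The match was not counted over all genes tested, so no share stands beside these 7. Choosing genes higher under the knockout label at 1 h already places those 1 h libraries high, and 21 of the 31 were also called higher at 3 h. The count of 7 is therefore in part set by that choice. In untreated libraries labelled knockout numbered 1 and 2 and labelled wild type numbered 1 and 2, Trp53 stood at 265.13, 79.13, 113.96 and 211.19 TPM, Eda2r at 1.83, 0.39, 0.09 and 2.81 TPM, and Ccng1 at 18.78, 12.35, 10.09 and 29.24 TPM. Cdkn1a, at 6.88, 5.38, 5.91 and 6.60 TPM, ranked these untreated libraries as Trp53 did. Its 6 highest libraries were not those of Trp53. The wild type-labelled libraries at 1 h numbered 2 (8.36 TPM) and at 3 h numbered 1 (6.96 TPM) stood above the untreated ones. Gm6685 and Gm18860 had their 6 lowest values in the 6 libraries highest for Trp53. This was not tested.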
